A study of Mus musculus with 12 samples.

Results

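The clustered histone genes of mouse bone marrow were taken as the entries of an expression table whose symbol begins with Hist1h, Hist2h, Hist3h or Hist4h and whose level reached 1 FPKM (fragments counted per kilobase of gene, scaled to the depth of the library) in at least 3 of 12 samples. The table held 68 entries with such a symbol among 24421, and 48 of them met the level rule, out of 11767 genes that met it in all. Marrow of C57BL/6 mice was sampled in 4 groups of 3. Young mice were either controls (Young-CON) or had a traumatic brain injury (Young-TBI), and aged mice likewise (Aged-CON and Aged-TBI). Marrow was taken 3 days after the injury was made. No genotype, age in numbers, sex or sham procedure is given for any group, and every mouse carried the same strain background. Total RNA was isolated with TRIzol and made into libraries with a SMARTER mRNA-Seq kit. Whether each sample is a different animal is not stated, and the spread that the p-values use may therefore be technical.

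Histones are the proteins around which nuclear DNA is wound. Core histones H2A, H2B, H3 and H4 form the nucleosome particle, and the linker histone H1 binds where DNA enters and leaves it. Most genes in the histone clusters have no introns and are transcribed in S phase, when newly copied DNA has to be packaged, and in marrow that makes them high in dividing blood cell precursors. Their messenger RNAs end in a conserved stem-loop, bound by the protein SLBP, in place of the poly(A) tail, although some of the genes also give polyadenylated transcripts in differentiated cells. The labels do not say whether the libraries selected polyadenylated RNA, so how completely stem-loop-ended transcripts were captured is not known.

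The stem-loop is shown because it is the feature that sets these messenger RNAs apart. A search for the letters of the stem-loop after the stop codon found one in the annotated GENCODE M21 transcript of 33 of the 48 genes, 21 to 46 bases past the stop codon. In 17 of the 33, at least 100 bases of transcript were annotated beyond it. The 16 bases of the stem-loop are in capitals below, and all lines run from 5′ to 3′ on the RNA's own strand.
Hist1h1c stem-loop: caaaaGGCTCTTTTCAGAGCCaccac
Hist3h2a stem-loop: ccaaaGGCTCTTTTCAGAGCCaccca
Hist3h2ba stem-loop: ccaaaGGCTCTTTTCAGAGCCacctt
Hist1h3c stem-loop: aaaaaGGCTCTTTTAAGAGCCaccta
Hist2h2ac stem-loop: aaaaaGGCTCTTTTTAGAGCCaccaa
Hist1h4i stem-loop: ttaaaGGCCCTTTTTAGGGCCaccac
Hist1h4j stem-loop: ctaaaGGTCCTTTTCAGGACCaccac
All 24 stem-loops found in H1, H2A, H2B and H3 genes had the same stem and differed only in the loop, where 19 matched that of Hist1h1c, 4 that of Hist1h3c and 1 that of Hist2h2ac. The 9 stem-loops found in H4 genes had other stems, 7 of them with the stem of Hist1h4i and 2 with that of Hist1h4j.

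Promoters are shown for the 4 genes that passed a test in any comparison below, from 250 bases before to 50 bases after the RefSeq start in build GRCm38.p6. A RefSeq promoter matched 44 of the 48 genes. The letters searched on both strands were CCAAT, the H1 box AAACACA, the TATA box TATAAA, the octamer ATTTGCAT and the E2F letters TTTCGCG and TTTGGCG, and matches are in capitals.
Hist1h1c promoter, chr13:23738557-23738856, plus strand: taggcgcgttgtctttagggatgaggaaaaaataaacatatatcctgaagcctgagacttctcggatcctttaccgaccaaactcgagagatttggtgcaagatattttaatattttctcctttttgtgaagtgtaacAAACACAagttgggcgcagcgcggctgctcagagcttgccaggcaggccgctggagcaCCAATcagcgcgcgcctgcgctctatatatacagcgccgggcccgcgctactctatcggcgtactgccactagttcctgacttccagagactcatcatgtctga
Hist3h2a promoter, chr11:58954435-58954734, plus strand: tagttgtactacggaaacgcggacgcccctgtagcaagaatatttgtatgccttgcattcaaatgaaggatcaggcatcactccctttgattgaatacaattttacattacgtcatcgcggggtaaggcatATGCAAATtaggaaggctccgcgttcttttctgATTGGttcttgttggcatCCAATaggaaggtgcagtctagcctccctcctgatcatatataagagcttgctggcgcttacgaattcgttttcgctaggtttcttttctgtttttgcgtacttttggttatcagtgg
Hist2h2bb promoter, chr3:96269450-96269749, plus strand: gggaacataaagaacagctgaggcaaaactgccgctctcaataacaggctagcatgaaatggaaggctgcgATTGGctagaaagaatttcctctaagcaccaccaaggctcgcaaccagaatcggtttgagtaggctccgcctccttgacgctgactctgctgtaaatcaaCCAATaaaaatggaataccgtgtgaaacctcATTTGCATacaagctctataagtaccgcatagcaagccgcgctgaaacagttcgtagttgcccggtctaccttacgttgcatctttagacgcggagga
Hist1h4k promoter, chr13:21750504-21750803, minus strand: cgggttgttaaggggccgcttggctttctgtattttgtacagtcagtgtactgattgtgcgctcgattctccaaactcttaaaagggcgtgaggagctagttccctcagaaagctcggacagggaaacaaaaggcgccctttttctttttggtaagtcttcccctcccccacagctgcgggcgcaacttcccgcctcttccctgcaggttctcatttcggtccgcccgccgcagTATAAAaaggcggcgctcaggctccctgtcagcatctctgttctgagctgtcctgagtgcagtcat
CCAAT stood in 37 of the 44 promoters (84.1%), against 37.4% of all 32851 promoters of the same length. All 35 matched H1, H2A, H2B and H3 promoters held it, but only 2 of 9 H4 promoters did. TATAAA stood in 26 promoters (59.1%, against 13.6% of all). The H1 box stood in all 4 H1 promoters and in 6 of the 44 in all (13.6%, against 7.18% of all promoters). The octamer stood in 10 promoters (22.7%, against 1.74%), 5 of H2A and 5 of H2B genes. TTTCGCG also stood in 10 (22.7%, against 0.849%), again 5 of H2A and 5 of H2B genes, and 2 promoters held both. TTTGGCG was in none of the 44 windows and in 1.56% of all. Of the 4 promoters printed, Hist3h2a and Hist2h2bb each hold the octamer and 2 CCAAT matches, 1 on either strand, Hist1h1c holds the H1 box and CCAAT, and Hist1h4k holds TATAAA alone. A match is a match of letters and not a measured binding site.

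Whole counts could be recovered from the steps of the FPKM values for 99.7% of the 11767 genes and for all 48 histone genes, and they summed to between 11032650 and 14232081 per sample. Marrow markers were present at high levels, with group means of 608 to 1105 FPKM for the granulocyte gene Mpo, 501 to 927 for the erythroid gene Alas2 and 39.7 to 184 for the B cell gene Cd79a. The median histone gene had 14 counts in its median sample, and 38 of the 48 were under 30, so counting error alone is large for most of them. Young-CON 2, Aged-CON 2 and Aged-CON 3 stood apart from the other control samples by low erythroid and S-phase genes, which bears on the comparisons below and is given there.

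The 48 genes comprised 4 of 6 H1 entries, 10 of 18 H2A, 15 of 19 H2B, 9 of 12 H3 and 10 of 13 H4. By position, 41 of 54 entries of the Hist1 cluster on chromosome 13, 5 of 10 of Hist2 on chromosome 3 and 2 of 3 of Hist3 on chromosome 11 met the rule, while the single Hist4 entry on chromosome 6 did not. The genes just inside the rule were Hist1h2an and Hist1h2bp, each at 1 FPKM or more in 4 samples. Just outside were Hist1h4a and Hist4h4, each in 2 samples. Of the 20 entries outside, 9 were listed at 0 in all 12 samples. For 7 of those 9 at least 90% of the coding sequence, read in windows of 50 bases, also occurs in another gene, so a 0 there may be a matter of how reads that fit several copies were counted, which was not tested.

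A few genes carried most of the signal (plot of levels of all 48 genes). Hist1h1c, which encodes linker histone H1.2, had the highest mean level over 12 samples at 59.7 FPKM. It was followed by the H4 gene Hist1h4i at 50.6, the H2B gene Hist1h2bc at 33.1, the H2A gene Hist3h2a at 28.2 and the H2B gene Hist3h2ba at 18. These 5 genes made up 65.1% of the summed FPKM of the 48. Hist2h2be of H2B (7.05) and Hist1h3c of H3 (5.64) were the only others above 5. A further 38 genes lay between 1 and 5 and 3 lay under 1, down to Hist1h2bp at 0.722. The median over the 48 was 2.18 FPKM, and the highest mean was 82.7 times the lowest. Abundance here and below means FPKM. How far the order of these genes holds in the cell is not known, as the capture of stem-loop-ended transcripts is not known.

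**Figure D1:**
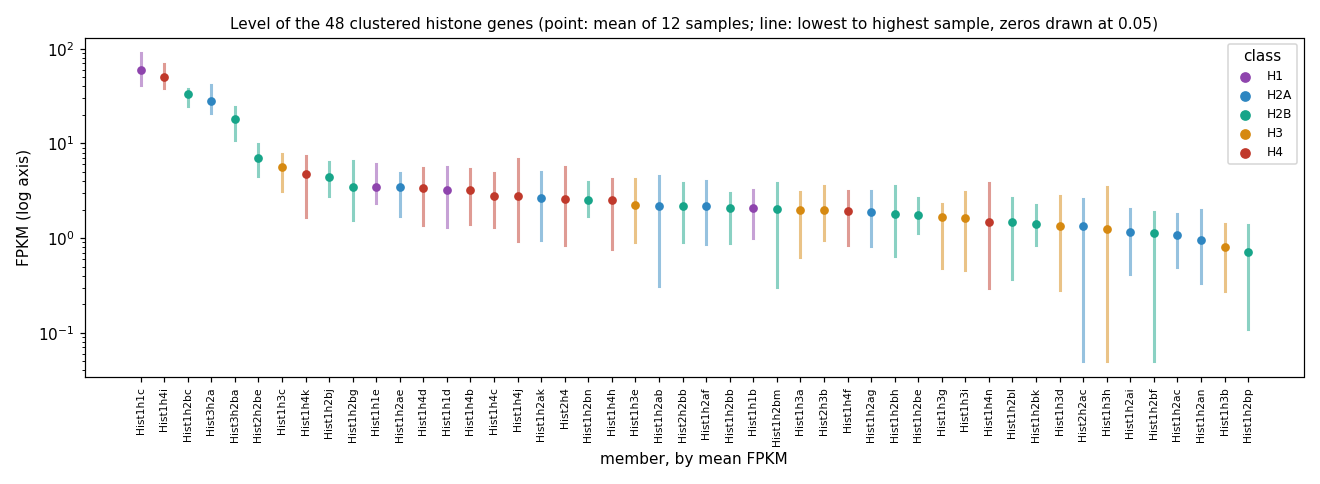
Level of each of the 48 clustered histone genes on a log axis of FPKM, ordered by mean. Points are means of 12 samples and lines run from the lowest to the highest sample, with values of 0 drawn at 0.05, coloured by histone class; 5 genes stand clear of the rest, from Hist1h1c at 59.7 to Hist3h2ba at 18.

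Among 48 genes, 3 passed the test for age without injury (Aged-CON against Young-CON), 2 for injury in aged mice, 1 for age after injury (Aged-TBI against Young-TBI), 1 for the interaction of age and injury and 0 for injury in young mice. A gene passed at a limma adjusted p under 0.05, adjusted over all 11767 genes, on the scale of log2(FPKM + 1). Over all genes tested the same rule called 4.98% for age without injury, 0.323% for injury in aged mice, 9.9% for age after injury, 0.195% for the interaction and 5.15% for injury in young mice. The histone share of 6.25% was near the background for age without injury. In aged injured mice the 2 genes were 4.17% of the 48, but they moved in opposite directions. The called genes are circled in the plot of changes by class.

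**Figure D2:**
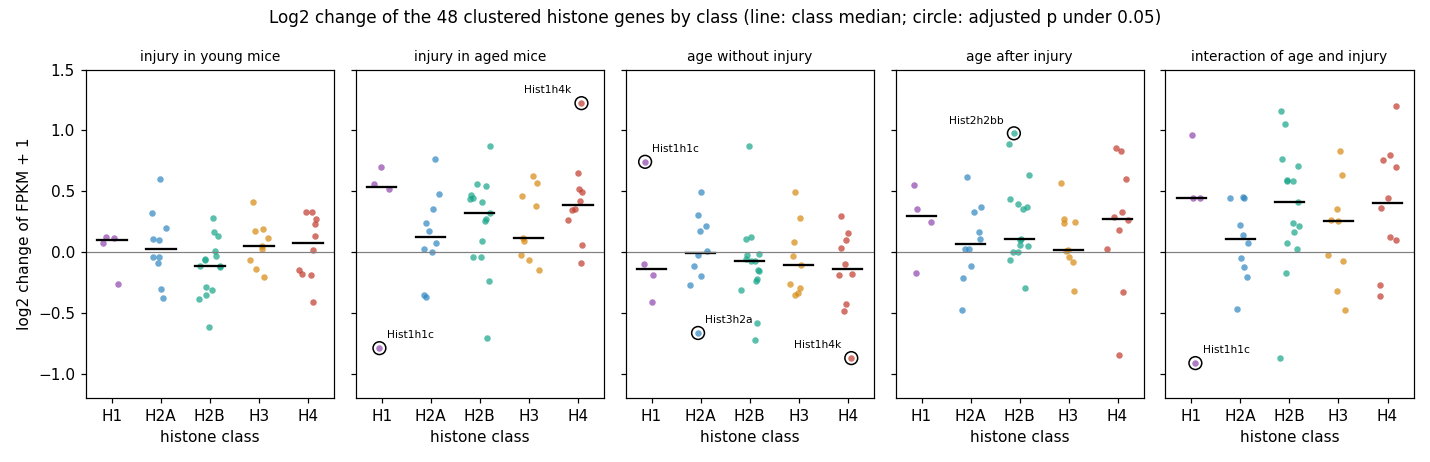
Log2 change of FPKM + 1 for each of the 48 genes, 1 panel per comparison, with genes grouped by histone class. Bars are class medians and circles mark adjusted p under 0.05; in aged injured mice 36 of 48 points lie above 0 while Hist1h1c lies at −0.79.

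Among linker histone genes the one called was Hist1h1c, which was higher in aged controls than in the other 3 groups. Hist1h1c lies at chr13:23738807-23739531 on the plus strand (RefSeq, GRCm38.p6) and has 1 exon. Its level was 50.9, 47.4 and 52.5 FPKM in Young-CON, 56.3, 57.0 and 51.2 in Young-TBI, 82.1, 82.2 and 89.9 in Aged-CON, and 42.0, 52.1 and 52.2 in Aged-TBI. All 3 aged controls lay above every other sample, and the other 3 groups overlapped. The group means were 50.3 ± 2.61, 54.8 ± 3.12, 84.7 ± 4.49 and 48.8 ± 5.90 FPKM (SD, n = 3 each).

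With age alone Hist1h1c rose by 0.74 on the log2 scale (SE 0.09, limma adjusted p = 0.000353). With injury in aged mice it fell by 0.79 (SE 0.09, limma adjusted p = 0.00259). Both comparisons use the same 3 Aged-CON samples. In young mice injury gave 0.12 (SE 0.09, limma adjusted p = 0.489), and age after injury gave −0.17 (SE 0.09, limma adjusted p = 0.226). The interaction, the injury effect in aged minus that in young mice, was −0.91 (SE 0.12, limma adjusted p = 0.0270). The change with age passed in all 22 alternative settings and that with injury in aged mice in 21 of 22, the exception being the fit of only the 6 aged samples (limma adjusted p = 0.0796). The interaction passed in 10 of 21, and its adjusted p ranged up to 0.110. Leaving out any 1 of Young-CON 1, Young-CON 3, Young-TBI 1, Young-TBI 3, Aged-CON 2, Aged-CON 3, Aged-TBI 2 or Aged-TBI 3 ended that call, with limma adjusted p-values of 0.0613 to 0.110. Its counts ran from 410 to 1037 per sample, and 21.9% of its coding windows occur in another gene, far less than for most members of the family.

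Neutrophil markers stood beside the Hist1h1c values. Of 9 mature neutrophil genes, 9 had log2 changes above 0 with age in the controls (median 0.37) and 0 with injury in aged mice (median −0.34). Limma and limma-voom called 0 in both comparisons, with 7 and 5 at an unadjusted p under 0.05 in limma. Their mean log2 level was 11.10, 11.29 and 10.98 in Young-CON, 11.15, 11.03 and 11.18 in Young-TBI, 11.10, 11.67 and 11.67 in Aged-CON, and 11.15, 11.14 and 11.13 in Aged-TBI. In Aged-CON 1 the neutrophil level was 11.10 and Hist1h1c was at 82.1 FPKM. The part of these markers in the Hist1h1c result was not tested. The summed level of the list was 53284 to 65489 FPKM in Young-CON and 58798 to 67536 in Young-TBI, and for aged mice 59396 to 87131 in controls and 62156 to 63273 after injury. Of 6 primary granule genes, 6 passed as higher with injury in young mice (median 0.90). All 6 rose with age in the controls (median 0.52), and 5 of them passed. For age after injury (median −0.48) and for the interaction (median −1.01) 6 passed as lower. For injury in aged mice their median was −0.10, 0 passed in limma or limma-voom and 0 reached an unadjusted p under 0.05. The part of the primary granule genes in the Hist1h1c result was not tested either. In bulk marrow, fewer cells of a type and less RNA per cell cannot be told apart.

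**Figure D3:**
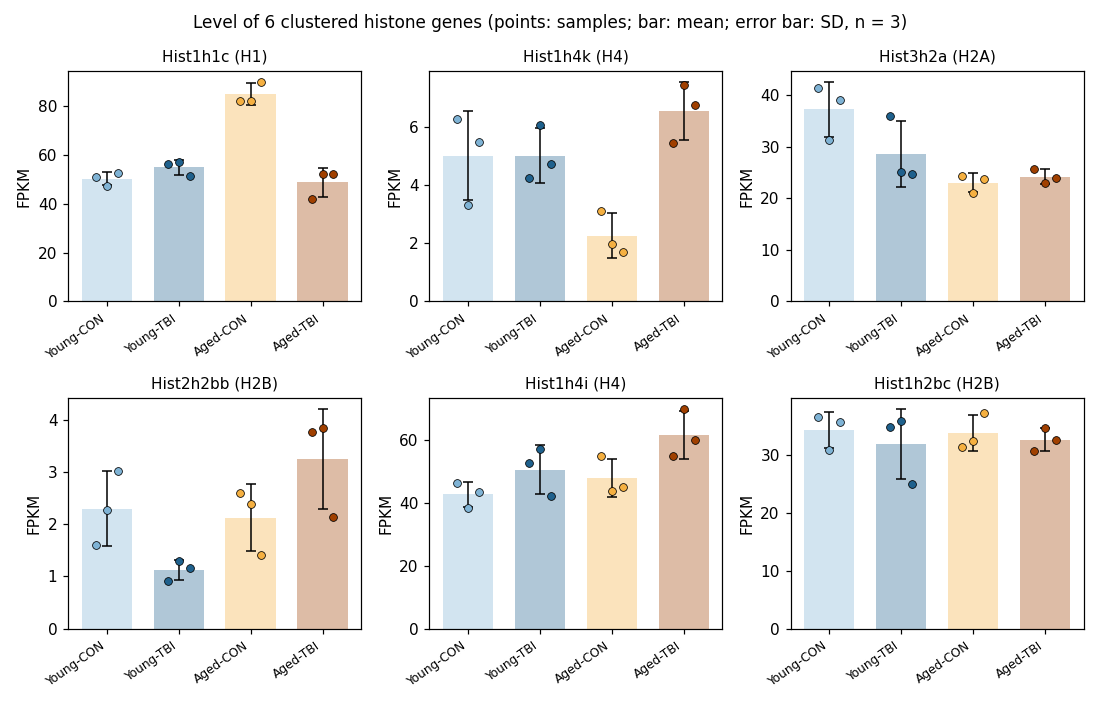
FPKM of 6 histone genes in the 4 groups; points are samples, bars are means of 3 and error bars are SD. Hist1h1c is high in the 3 Aged-CON samples alone (82.1 to 89.9), Hist1h4k is lowest there (1.69 to 3.12), and Hist1h2bc is nearly level across the groups.

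The other H1 genes encode the linker histones H1.3 (Hist1h1d), H1.4 (Hist1h1e) and H1.5 (Hist1h1b), and their pattern ran the other way. Hist1h1d was at 4.14, 2.47 and 3.84 FPKM in Young-CON, 2.81, 2.56 and 2.67 in Young-TBI, 3.29, 1.32 and 2.67 in Aged-CON, and 5.64, 3.91 and 3.77 in Aged-TBI. Hist1h1e was at 3.36, 2.45 and 3.34, then 2.89, 3.08 and 4.19, then 3.10, 2.34 and 2.89, then 6.07, 3.11 and 4.88 FPKM in the same groups. For both genes every Aged-TBI sample lay above every Aged-CON sample, though for Hist1h1e the lowest Aged-TBI value, 3.11, and the highest Aged-CON value, 3.10, nearly met. The log2 changes with injury in aged mice were 0.70 for Hist1h1d, 0.56 for Hist1h1e and 0.52 for Hist1h1b, none of which passed. The GENCODE M21 models of Hist1h1e and Hist1h2be overlap on the same strand, but their RefSeq spans do not. The gene length implied by the Hist1h1e values equalled its RefSeq span. Whether the GENCODE overlap bears on the values of that pair was not tested. Hist1h1c made up 74.9% to 94.6% of the summed H1 level of a sample. Without it the H1 sum was 8.46 ± 1.82 FPKM in young controls and 8.13 ± 0.58 with injury, and in aged mice 6.83 ± 2.18 without and 11.8 ± 2.01 with injury (SD, n = 3). With it the sum was highest in Aged-CON, at 91.6 ± 4.91 against 58.7 ± 4.42 in Young-CON, 63.0 ± 2.74 after injury and 60.5 ± 3.94 in Aged-TBI.

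**Figure D4:**
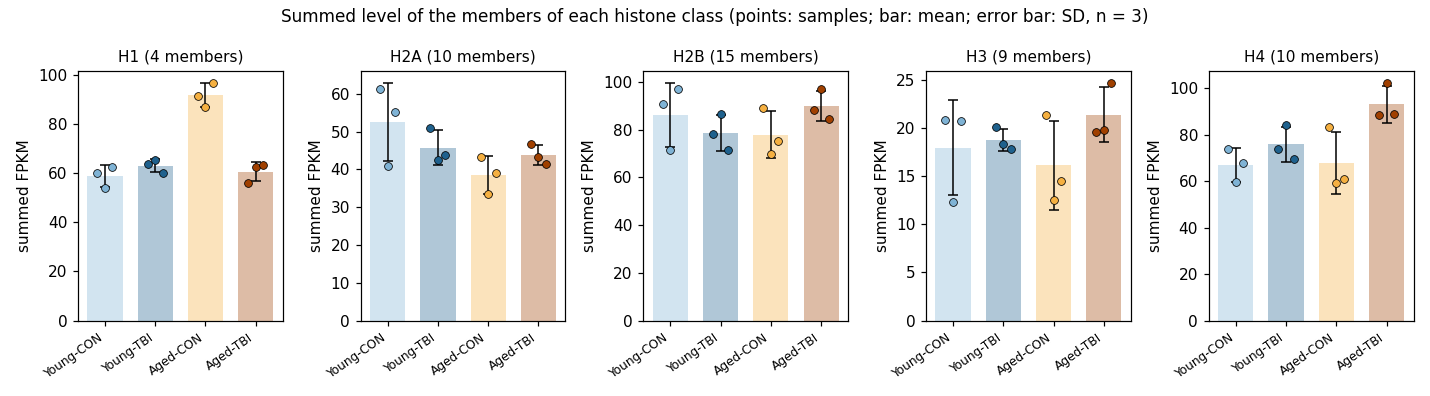
Summed FPKM of the genes of each histone class in the 4 groups; points are samples, bars are means of 3 and error bars are SD. The H1 sum is highest in Aged-CON and the H4 sum in Aged-TBI.

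Among H2A genes, Hist3h2a was lower in aged than in young controls. It lies at chr11:58954685-58955192 on the plus strand, and its level was 41.5, 31.2 and 39.0 FPKM in Young-CON, 35.9, 25.1 and 24.7 in Young-TBI, 24.4, 20.9 and 23.6 in Aged-CON, and 25.7, 22.9 and 24.0 in Aged-TBI. Every young control lay above every aged sample, while Young-TBI spanned the gap between them. With age in the controls it fell by 0.67 on the log2 scale (SE 0.14, limma adjusted p = 0.0168), and it passed in 19 of 22 alternatives. Leaving out Young-CON 1, Young-CON 3 or Aged-CON 2 ended the call, with adjusted p-values of 0.0535, 0.0850 and 0.0788 in limma. All of its coding windows also lie in an annotated transcript of Trim17, a gene that was itself listed at group means of 0.346 to 0.744 FPKM. In young mice injury gave −0.38 (SE 0.14, limma adjusted p = 0.151).

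B cell markers differed in the same comparison. All 8 genes of a B cell list were lower with age in the controls, with a median log2 change of −1.95, and the summed level of the list was 561 to 790 FPKM in Young-CON and 254 to 365 in Young-TBI, and for aged mice 129 to 179 in controls and 109 to 126 after injury. The part of B cells in the fall of Hist3h2a was not tested.

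Hist1h2ae and Hist1h2ak were the next H2A genes by level. Hist1h2ae was at 4.11, 2.0 and 2.0 FPKM in Young-CON, 4.05, 4.45 and 4.86 in Young-TBI, 3.20, 1.71 and 3.15 in Aged-CON, and 4.52, 3.99 and 3.64 in Aged-TBI. It had the highest value of the 48 for injury in young mice, 0.60 (SE 0.21, limma adjusted p = 0.139), and 0.48 in aged mice, where the groups did not overlap and the test was not passed (limma adjusted p = 0.20). Hist1h2ak group means ran from 2.37 in Young-TBI to 3.29 in Aged-TBI, within SDs of 0.90 to 1.53. The H2A sum was 52.5 ± 10.4, 45.7 ± 4.64, 38.5 ± 4.94 and 43.8 ± 2.62 FPKM in young controls, injured young mice, aged controls and injured aged mice. Without Hist3h2a it was 15.3 ± 5.11, 17.2 ± 1.91, 15.6 ± 3.20 and 19.6 ± 1.90, so the order of the whole sum followed that gene.

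H2B was the largest class and held genes with quite different patterns. Hist1h2bc, its most abundant gene, was at 36.4, 30.7 and 35.5 FPKM in Young-CON, 34.7, 35.8 and 24.9 in Young-TBI, 31.4, 32.4 and 37.2 in Aged-CON, and 30.7, 34.5 and 32.5 in Aged-TBI. All 4 groups overlapped, and none of its log2 changes exceeded 0.12 in size, each with an SE of 0.13. Hist3h2ba, the neighbour of Hist3h2a on chromosome 11, had means of 20.6 ± 3.90, 18.8 ± 1.31, 13.6 ± 4.24 and 19.0 ± 3.52 FPKM. Its value with age in the controls, −0.58 (SE 0.19, limma adjusted p = 0.122), had the sign of its neighbour's but did not pass.

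Hist2h2bb, an H2B gene of the Hist2 cluster, was the only clustered histone gene called for age after injury, where 9.9% of all genes were called. It lies at chr3:96269700-96270192 on the plus strand. Its level was 1.60, 2.27 and 3.02 FPKM in Young-CON, 0.917, 1.30 and 1.16 in Young-TBI, 2.59, 2.38 and 1.40 in Aged-CON, and 3.76, 3.83 and 2.14 in Aged-TBI. Every Aged-TBI sample lay above every Young-TBI sample, and Young-TBI also lay below Young-CON throughout. Between injured groups it rose with age by 0.98 on the log2 scale (SE 0.21, limma adjusted p = 0.0178), while injury in young mice gave −0.62 (SE 0.21, limma adjusted p = 0.130). The call rests on 6 to 28 counts per sample, and all its coding windows also occur in the annotated gene Gm20628, so its value is uncertain. It was lost when Young-TBI 1, Young-TBI 3, Aged-TBI 1 or Aged-TBI 2 was left out and with the erythroid markers as a covariate (limma adjusted p = 0.153). The mean level of those markers was higher in every Aged-TBI than in any Young-TBI sample, so that fit cannot separate them from the groups compared.

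Hist2h2be, which shares no coding window with another gene, was at 6.87, 6.15 and 7.57 FPKM in Young-CON, 6.65, 7.45 and 6.02 in Young-TBI, 6.83, 4.54 and 5.84 in Aged-CON, and 7.68, 9.83 and 9.15 in Aged-TBI. All Aged-TBI samples lay above all others, with 162 to 381 counts per sample. The log2 change with injury in aged mice was 0.56 (SE 0.13, limma adjusted p = 0.0978) and did not pass. Hist1h2bg was highest in Aged-CON, where Hist2h2be was lowest, with 2.97, 1.55 and 3.21 FPKM in Young-CON, 2.60, 3.82 and 2.46 in Young-TBI, 6.47, 5.37 and 4.47 in Aged-CON, and 2.24, 4.66 and 2.27 in Aged-TBI. Like Hist1h1c it had its highest group mean in Aged-CON, with log2 changes of 0.87 for age without injury (SE 0.25, limma adjusted p = 0.0745) and −0.71 for injury in aged mice (SE 0.25, limma adjusted p = 0.135). Neither passed, and 85.2% of its coding windows occur in other genes, Hist1h2bc first among them.

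H3 genes were the least abundant class, with summed levels of 17.9 ± 4.92, 18.7 ± 1.18, 16.1 ± 4.65 and 21.4 ± 2.88 FPKM in young controls, injured young mice, aged controls and injured aged mice. Limma and limma-voom called 0 of the 9 in every comparison, with 2 at an unadjusted p under 0.05 for injury in aged mice, 1 for age without injury and 0 in the other comparisons. Over all genes 23.9% and 19.2% reached that p in the first 2 of these, so the H3 counts were near or below the background. Hist1h3c, the most abundant, was at 6.29, 4.15 and 6.99 FPKM in Young-CON, 6.28, 5.62 and 4.46 in Young-TBI, 7.18, 3.21 and 3.14 in Aged-CON, and 6.95, 5.63 and 7.78 in Aged-TBI. Aged-CON 1 lay within the range of Aged-TBI, and the other 2 aged controls lay lowest of all samples. Hist1h3e and Hist1h3a followed, with group means of 1.69 to 2.89 and 1.71 to 2.52 FPKM. The unclustered variant gene H3f3a, which encodes the replication-independent H3.3, stood at 996 to 1135 FPKM in group means, far above the sum of all 9 clustered H3 genes. H3f3a gives polyadenylated messenger RNA, and how completely stem-loop-ended transcripts were captured is not known. The gap in FPKM need not be the gap in the cell.

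H4 proteins are identical across most of their genes, and Hist1h4i made up 60.4% to 74.0% of the summed H4 FPKM of a sample. Hist1h4i lies at chr13:22040960-22041362 on the minus strand. Its level was 46.1, 38.4 and 43.5 FPKM in Young-CON, 52.5, 56.9 and 41.9 in Young-TBI, 54.7, 43.7 and 45.1 in Aged-CON, and 54.9, 69.7 and 59.8 in Aged-TBI. Every Aged-TBI sample lay above every Aged-CON sample, narrowly so for Aged-CON 1, and the log2 change was 0.36 (SE 0.13, limma adjusted p = 0.141), which did not pass. In young mice injury gave 0.23 (SE 0.13, limma adjusted p = 0.358).

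Hist1h4k rose with injury in aged mice and was low in aged controls. It lies at chr13:21750145-21750553 on the minus strand. Its level was 6.26, 3.32 and 5.47 FPKM in Young-CON, 4.24, 6.07 and 4.71 in Young-TBI, 3.12, 1.97 and 1.69 in Aged-CON, and 5.44, 7.43 and 6.75 in Aged-TBI. The 3 Aged-CON samples were the lowest of all 12, and the other groups overlapped. It fell by 0.87 with age in the controls (SE 0.21, limma adjusted p = 0.0345) and rose by 1.22 with injury in aged mice (SE 0.21, limma adjusted p = 0.0374), both against the same Aged-CON samples. The interaction was 1.20 (SE 0.30, limma adjusted p = 0.0951).

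Hist1h4k had 11 to 45 counts per sample, and 71.5% of its coding windows occur in other genes, so its value is uncertain. It passed in 11 of 22 alternatives for age without injury and in 7 of 22 for injury in aged mice. For the latter the log2 change ranged from 0.70 to 1.53 and the limma adjusted p reached 0.267 with the erythroid markers as a covariate. Those markers were themselves highest in the Aged-TBI samples, so that fit cannot separate them from injury. Leaving out any of Young-CON 3, the 3 Young-TBI samples, Aged-CON 2, Aged-CON 3 or the 3 Aged-TBI samples ended the call for injury in aged mice. The H4 sum was 67.0 ± 7.18, 75.8 ± 7.56, 67.8 ± 13.4 and 93.2 ± 7.97 FPKM in young controls, injured young mice, aged controls and injured aged mice, and all Aged-TBI samples (88.4, 102 and 88.9) lay above the highest sample of any other group (84.2). Hist1h4d, the third by level, had group means of 2.81 to 4.13 FPKM.

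In aged mice most histone genes lay somewhat higher after injury, although only Hist1h4k passed as higher, and Hist1h1c passed as lower. Of the 48 genes, 36 had a log2 change above 0, with a median of 0.34. Over all 11767 genes 45.2% lay above 0 and the median was −0.02. By class the number above 0 was 3 of 4 for H1, 7 of 10 for H2A, 11 of 15 for H2B, 6 of 9 for H3 and 9 of 10 for H4, with medians of 0.54, 0.12, 0.32, 0.12 and 0.39. Groups did not overlap for 9 of the 48 genes, against 22.2% of all genes. At an unadjusted p under 0.05, 13 histone genes were higher and 2 lower, where 10.8% and 13.1% of all genes were. In young mice 24 genes lay above 0 and 24 below after injury, with a median of −0.01, and 0 passed. At an unadjusted p under 0.05 there were 3 (Hist2h2bb, Hist3h2a and Hist1h2ae), against 20.1% of all genes, and a count-based test of the recovered counts (limma-voom) also called 0, where it called 5.51% of all genes. The lowest values after Hist2h2bb and the highest after Hist1h2ae were Hist1h4b at −0.41 and Hist1h3g at 0.41. Groups did not overlap for 1 gene, Hist2h2bb, against 27.9% of all genes.

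Age gave no common direction in the controls. There 32 of 48 genes lay below 0 and the median was −0.10, beside −0.05 over all genes, of which 37.0% lay above 0. Groups did not overlap for 5 genes (Hist1h1c, Hist1h2bg and Hist1h3g higher, Hist3h2a and Hist1h4k lower), against 20.4% of all genes. Between injured groups 35 of 48 lay above 0, with a median of 0.17 beside −0.05 over all genes. There the groups did not overlap for 7 genes, all higher in aged mice, against 40.0% of all genes. For the interaction 35 lay above 0, with a median of 0.26 beside 0.02 over all genes.

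The 43 genes below the 5 most abundant summed to 111, 73.6 and 108 FPKM in Young-CON, 87.6, 103 and 102 in Young-TBI, 117, 71.6 and 78.9 in Aged-CON, and 127, 123 and 119 in Aged-TBI. The controls split within their groups, with Young-CON 2, Aged-CON 2 and Aged-CON 3 low and Aged-CON 1 close to the Aged-TBI samples. A list of 25 S-phase genes had mean log2 levels of 5.67, 5.38 and 5.61 in Young-CON, 5.79, 5.79 and 5.64 in Young-TBI, 5.82, 5.36 and 5.34 in Aged-CON, and 5.85, 5.90 and 5.86 in Aged-TBI. A list of 12 erythroid markers had 7.35, 6.35 and 7.16, then 6.99, 7.01 and 6.56, then 7.50, 6.67 and 6.58, then 7.65, 7.77 and 7.74 in the same groups. The same 3 control samples were low in both lists, with Young-TBI 3 also low in the erythroid list, and Aged-CON 1 was high. The summed erythroid level was 1492 to 3147 FPKM in Young-CON and 1700 to 2427 in Young-TBI, and for aged mice 1783 to 3424 in controls and 3861 to 4100 after injury. The part of erythroid cells or of cell division in the histone values was not tested.

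**Figure D5:**
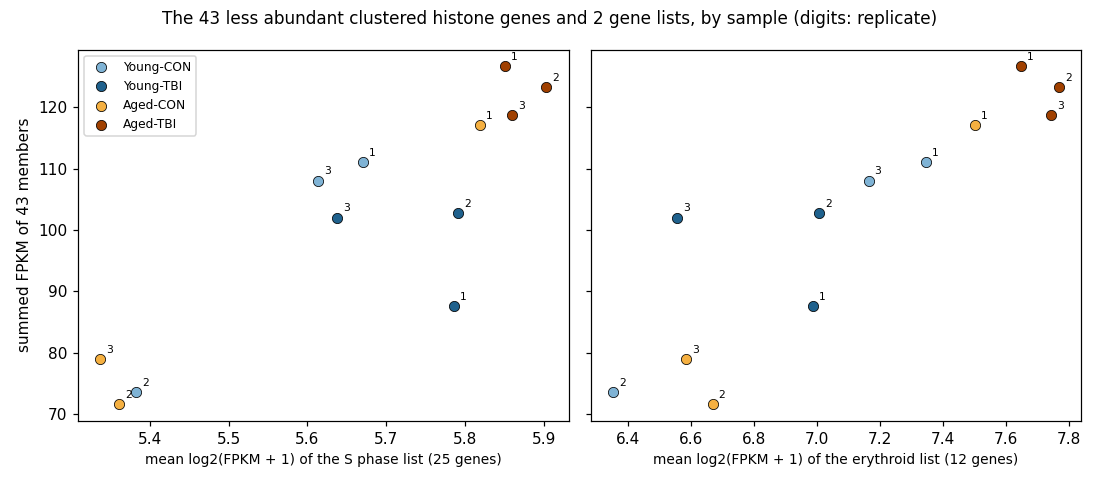
Summed FPKM of the 43 less abundant histone genes (vertical axis) against the mean log2(FPKM + 1) of 25 S-phase genes (left) and of 12 erythroid markers (right), 1 point per sample, with replicate numbers. Young-CON 2, Aged-CON 2 and Aged-CON 3 lie lowest on the vertical axis (71.6 to 78.9), and the 3 Aged-TBI samples highest (119 to 127).

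The number of histone genes called in comparisons with aged controls depended on Aged-CON 1. Without it 10 histone genes passed for injury in aged mice, 9 of them higher: Hist1h4k, Hist1h4i, Hist1h4d, Hist1h1b, Hist1h1d, Hist1h2bm, Hist1h3c, Hist2h2be and Hist3h2ba, with Hist1h1c lower. That is 20.8% of the 48, in a fit that called 27.8% of all genes, and for the higher direction alone 18.8% beside 14.9%. Without it the age comparison in the controls called 6, of which 5 were lower, in a fit that called 14.2% of all genes. With the erythroid markers as a covariate only Hist1h1c passed for injury in aged mice, in a fit that called 0.0935% of all genes. Their mean log2 level was 7.65 to 7.77 in Aged-TBI and at most 7.50 in any other sample. The covariate therefore cannot be told apart from injury in aged mice.

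Few of the genes that make, process and degrade histone messenger RNA passed a test. Of 13 tested genes of histone gene transcription and 3′ end processing, limma and limma-voom called 0 in each of the 5 comparisons, with at most 2 at an unadjusted p under 0.05. Slbp, whose product binds the stem-loop printed above, was at 91.6 ± 11, 100.3 ± 5.44, 88.9 ± 14.9 and 116 ± 7.16 FPKM in young controls, injured young mice, aged controls and injured aged mice, with 0.39 for injury in aged mice (SE 0.12, limma adjusted p = 0.114). Npat, the coactivator of histone gene transcription, lay between 5.65 and 6.37 FPKM in group means, and Casp8ap2, a protein of the histone locus body, between 9.07 and 9.52. Of 9 genes of histone messenger RNA decay, Zcchc11, which encodes a uridylyltransferase, fell by 0.47 with injury in young mice (limma adjusted p = 0.00792) and by 0.45 with age in the controls (limma adjusted p = 0.00512). For age after injury the uridylyltransferase gene Zcchc6 rose by 0.25 (limma adjusted p = 0.0190) and the decapping enzyme gene Dcp2 fell by 0.35 (limma adjusted p = 0.0143). Of 18 histone chaperone and acetylation genes, only Daxx, an H3.3 chaperone, passed, and it fell by 0.32 for age after injury (limma adjusted p = 0.0401).

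S-phase and mitosis genes lay higher after injury at both ages, but limma and limma-voom called 0 of 25 and 0 of 15 in every comparison. At an unadjusted p under 0.05 in limma, 22 of 25 and 13 of 15 were higher with injury in aged mice, where 10.8% of all genes were. In young mice 3 of 25 and 0 of 15 were, against 8.72% of all genes. The young groups overlapped in the mean level of both lists. All 25 S-phase genes had log2 changes above 0 with injury in aged mice (median 0.36) and in young mice (median 0.20). All 15 mitosis genes did as well, with medians of 0.40 and 0.14. The proliferation marker gene Mki67 was at 203 ± 36.6, 214 ± 15.9, 195 ± 46.2 and 277 ± 7.62 FPKM in young controls, injured young mice, aged controls and injured aged mice.

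Unclustered histone variants, most of whose genes are expressed outside S phase and give polyadenylated messenger RNA, included genes with higher FPKM than any clustered one. Because the capture of stem-loop-ended transcripts is not known, that order need not hold in the cell. H3f3a, H3f3b, H2afz and H2afx each exceeded every clustered gene in group means, the lowest of theirs being 195 FPKM for H2afx in Aged-CON. Of 10 tested, H2afz, which encodes H2A.Z, rose by 0.25 with injury in young mice (limma adjusted p = 0.0455). H2afv, the second H2A.Z gene, and H2afx, which encodes the DNA-damage marker H2A.X, fell with age in the controls by 0.33 and 0.36 (limma adjusted p = 0.0242 and 0.0421). For age after injury H2afy, which encodes macroH2A, fell by 0.36 and the linker histone variant gene H1f0 by 0.54 (limma adjusted p = 0.0125 and 0.0287). For injury in aged mice limma and limma-voom called 0 of 10, with 6 higher at an unadjusted p under 0.05. H1f0 stood at 18.2 to 27.6 FPKM in group means, below Hist1h1c and above the other clustered H1 genes.

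How far values of single genes can be told apart is limited by how alike the genes are. For 40 of the 48 genes more than 50% of the 50-base coding windows also occur in another annotated gene, and the median share was 74.8%. The files do not say how reads that fit several genes were counted. The spread of recovered counts within groups, set against counting error as the ratio of chi-square to its 8 degrees of freedom, had a median of 2.59 over the 48 genes and a range of 0.655 to 4.99.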

How the data were processed

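RNA of bone marrow from 12 mouse samples, 3 in each of 4 groups, was sequenced. The authors deposited 1 table of FPKM values per gene and sample, normalized to gene length and to the reads of each sample, per the file headers. Per the submitters' processing notes the builds were GRCm38 and mm10 and R 4.3.3 was used. Which aligner, counter and annotation were used, and how strand and reads that fit several genes were handled, is not given in the sources used here. All columns carried sample labels.

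The analysis here took log2(FPKM + 1) and used limma (version 3.58.1, R 4.3.3) with a variance trend, all 12 samples in one model and a mean for each group, over 11767 genes at 1 FPKM or more in at least 3 samples. Tests were two-sided with Benjamini-Hochberg adjustment over those genes. A fold change on this scale understates the change of low genes. Because each gene's low values are multiples of what 1 read or fragment is worth, counts were recovered (99.7% of the tested genes whole within 0.05) and used for limma-voom as an alternative and for precision. The fit was tested on simulated data. The gene length implied by the steps equalled the RefSeq span for 32 of 48 histone genes. Sequences came from RefSeq promoters (GRCm38.p6) and GENCODE M21 transcripts.

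Members, gene lists, markers and alternatives were chosen with earlier results of these data known. Genes named are those called in any comparison, the 3 most abundant of each class, the 2 highest and 2 lowest changes where none was called, those nearest the level rule, a short set of fixed genes and called genes of each list. Hist1h2bg and the genes called without Aged-CON 1 were singled out after their values were seen.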

Additional observations from a re-analysis of the deposited data

Results flagged for a closer look

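The effect of injury on Hist1h1c differed between aged and young mice by the interaction test, with a difference of −0.91 on the log2 scale (SE 0.12, limma adjusted p = 0.0270). Its log2 change with injury was −0.79 in aged and 0.12 in young mice. The lowest Aged-CON sample (82.1 FPKM) lay above the highest of Aged-TBI (52.2 FPKM), so these groups did not overlap, which held for 22.2% of all genes. The interaction passed in 10 of 21 alternatives, with adjusted p-values from 0.00159 to 0.110.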

How the results depend on the processing

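No alternative turned the direction of a called histone gene. Fitting replicate number as a block gave 1 called gene for injury in aged mice (2 without the block), 2 for age after injury (1 without) and 0 for the interaction (1 without), and changed no other count by more than 1.5 times. Over all genes the block fit called 38, 1085 and 0 in these comparisons. Same-numbered samples deviated together (r over 0.1) in 3 of 18 pairs, and 4 of 12 samples correlated best with their own number, so the numbers are not taken to pair samples.

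Without the low-value filter 1 histone gene was called for injury in aged mice and 0 for the interaction, beside 17 and 2 of all genes. For injury in aged mice, no variance trend gave 1, only the 6 samples compared gave 0, limma-voom on recovered counts gave 1 and the erythroid covariate gave 1. Over all genes the first of these called 21 genes, and the others 0.0935%, 0.35% and 0.0935% in that order, where 1 of 48 is 2.08%. For age without injury the covariate gave 5 (10.4% of 48, against 8.35% of all genes). For age after injury the covariate gave 0 (against 1.16% of all genes) and only the 6 samples gave 6 (12.5%, against 19.2% of all). The covariate gave 0 for the interaction, where it called 0.017% of all genes. Without both Young-CON 2 and Aged-CON 1 the counts were 1 for injury in young mice, 14 for injury in aged mice, 8 for age without injury, 6 for age after injury and 13 for the interaction, or 2.08%, 29.2%, 16.7%, 12.5% and 27.1% of the 48, while that fit called 7.67%, 30%, 23.2%, 21.8% and 25.9% of all genes in the same order. Leaving out each sample in turn gave 0 to 1, 1 to 10, 1 to 6, 0 to 3 and 0 to 9 in the same order. All highest counts but the first came without Aged-CON 1, in a fit that called 27.8%, 14.2%, 18.1% and 17.9% of all genes in those comparisons. Without Young-CON 3 or Aged-CON 2 the count for age without injury was 1. Other than fewer samples or genes in a fit, the cause of these shifts was not tested. Class sums moved by less than 1 SD under another scaling and without the level rule. Depth limits most single genes: 38 of 48 had under 30 counts in their median sample.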
